A study of Mus musculus with 199 samples.

Results

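Hox genes were followed here through cell lines and liver colonies of mouse small-cell lung cancer and through a pre-cancer line. The members were the 39 protein-coding genes of the count table whose symbol is Hox, a cluster letter from a to d and a number, among 31581 genes in all and 21765 protein-coding genes. They lie in 4 clusters, with GRCm38 positions as the deposited table gives them: HoxA with 11 genes on chromosome 6, HoxB with 10 genes at chr11:96194316-96368256, HoxC with 9 genes at chr15:102921103-103036852, and HoxD with 9 genes at chr2:74668310-74765142. The rule reads gene symbols and biotypes only.

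Hox genes encode homeodomain transcription factors that give cells their position along the body axis. Within a cluster the gene order on the chromosome follows the order of expression along the embryo, from low-numbered anterior genes to high-numbered posterior ones. In cells that do not use a cluster, Polycomb complexes hold it under the histone mark H3K27me3, and the Kmt2a complex and its partners keep used genes active. The lung is formed from foregut, and its mesenchyme is known for genes of the middle of the clusters such as Hoxa5 and Hoxb5.

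The table held 199 libraries. KP1 is a single line of small-cell lung cancer cells, Rb1-/- and Trp53-/-, which was grown as spheroids and also as colonies in the liver of nude mice, which lack T-cell immunity, or of immunocompetent F1 mice. Cells were cut from cryosections by laser capture. A 10-cell library came from its own 10 cells, and a pool library was split from pooled captured material as a control of the method. There were 28 10-cell and 20 pool libraries of KP1 spheroids, 33 and 35 of nude liver colonies, and 31 and 24 of F1 liver colonies. RPC is a pre-cancer line, Rb1-/-, Trp53-/-, p130-/+ and Crebbp-/-, with 24 10-cell libraries of spheroids and neither pool nor bulk libraries. All of these lines thus lacked both Rb1 and Trp53, and RPC differed from KP1 also in p130, in Crebbp and in being another line. Spheroids of KP1 and of 3 further Rb1-/- Trp53-/- lines, KP2 (Ptch1+/lacz), KP3 (Axin2+/lacz) and KP5 (BAT-GAL), were sequenced in bulk with 1 library each and by another library method. The strain of nude and F1 hosts is not the same either. The labels do not say how many animals or cultures the captures came from, so p-values speak for the spread between captures, which may be technical, and for pools it is the spread of splits. Each library reports the RNA of all its cells, so that fewer cells with a transcript and less transcript per cell cannot be told apart.

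The 10-cell and pool libraries held 718208 to 7557773 gene counts and the bulk libraries 17266200 to 42447973. Levels are given in CPM, the count of a gene divided by all gene counts of its library, without the ERCC spike-in rows, on the usual CPM scale. Transcripts of Rb1 and Crebbp were still counted in lines that lack the genes, with a median of 16.6 CPM for Rb1 and 15.7 CPM for Crebbp in RPC, and counts per gene do not see which exons were removed. Neuroendocrine markers were present to differing degrees. Chga, a granule protein, had a mean of 535 CPM in KP1 spheroids, 342 in nude liver, 238 in F1 liver and 125 in RPC 10-cell libraries, with counts in every library of the 4 groups. Uchl1 had 777, 505, 1029 and 750 CPM, also with counts in every library. Other markers were uneven: Calca had 120 CPM in KP1 spheroids and 3.49 in RPC, where 14 of 24 libraries had counts, Neurod1 had 16.1 and 101 CPM, and Syp had counts in 12 of 28 KP1 spheroid libraries. The ERCC share was 0.1% or more in 9 of 28 KP1 and in 22 of 24 RPC 10-cell libraries.

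The promoters of the HoxD genes that carried most of the difference between lines are shown first, as the 250 bases before the RefSeq start on the plus strand of GRCm38.p6, with every CG dinucleotide in capitals. The windows are chr2:74704365-74704614 for Hoxd8, chr2:74691641-74691890 for Hoxd10, chr2:74679308-74679557 and chr2:74682073-74682322 for the first and the other start of Hoxd11, and chr2:74667975-74668224 for Hoxd13.
Hoxd8: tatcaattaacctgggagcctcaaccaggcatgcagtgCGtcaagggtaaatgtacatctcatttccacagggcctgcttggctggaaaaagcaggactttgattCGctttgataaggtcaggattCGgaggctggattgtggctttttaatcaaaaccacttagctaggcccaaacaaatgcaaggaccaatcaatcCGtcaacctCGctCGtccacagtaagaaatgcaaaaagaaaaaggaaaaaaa
Hoxd10: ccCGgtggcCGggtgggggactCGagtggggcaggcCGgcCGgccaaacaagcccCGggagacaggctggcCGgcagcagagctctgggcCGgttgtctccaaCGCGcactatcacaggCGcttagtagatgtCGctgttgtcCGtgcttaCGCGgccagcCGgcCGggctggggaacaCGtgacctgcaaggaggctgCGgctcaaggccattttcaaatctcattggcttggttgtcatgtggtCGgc
Hoxd11 first start: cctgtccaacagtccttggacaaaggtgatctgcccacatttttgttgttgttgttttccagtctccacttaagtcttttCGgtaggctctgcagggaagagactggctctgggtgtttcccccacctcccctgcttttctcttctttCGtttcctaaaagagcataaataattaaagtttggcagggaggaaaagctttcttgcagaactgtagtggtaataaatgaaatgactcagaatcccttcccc
Hoxd11 second start: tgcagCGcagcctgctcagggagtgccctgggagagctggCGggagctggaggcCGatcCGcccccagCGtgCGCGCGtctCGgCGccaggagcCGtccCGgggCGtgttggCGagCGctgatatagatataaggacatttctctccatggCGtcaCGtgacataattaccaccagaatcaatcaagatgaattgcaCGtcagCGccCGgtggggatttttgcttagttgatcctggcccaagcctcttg
Hoxd13: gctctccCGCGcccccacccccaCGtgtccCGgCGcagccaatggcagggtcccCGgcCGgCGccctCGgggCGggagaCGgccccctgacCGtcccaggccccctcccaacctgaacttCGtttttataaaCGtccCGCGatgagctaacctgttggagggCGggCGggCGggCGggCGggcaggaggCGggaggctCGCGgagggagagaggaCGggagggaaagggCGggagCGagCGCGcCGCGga

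These windows held 6, 20, 2, 20 and 31 CG dinucleotides in the order shown. In 300-base windows, 56.4% of all promoters had as many CG as that of Hoxd8, the HoxD gene with the highest bulk level per kb in KP1, and 5.58% as many as that of Hoxd13. RefSeq promoters, counted over 300 bases from 250 before to 50 after the start, were found for 22 of the 39 genes, in 24 windows. Their median CG count was 14.5, against 7 over all 32851 promoters, and it was 20 in the 10 HoxD windows and 17.5 in the 10 HoxA windows, while in bulk KP1 spheroids these clusters summed to 700 and 0.290 CPM. On either strand, CCAAT was present in 62.5% of Hox windows and 37.4% of all promoters, GGGCGG in 41.7% and 35.7%, TATAAA in 16.7% and 13.6%, and the Hox-Pbx composite letters TGATNNAT in 16.7% and 8.85%. None of these letter patterns contains another, and a match describes the sequence only.

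The bulk spheroids show the whole family at greatest depth. HoxB was transcribed in all 4 lines and HoxD in 3 of them, while HoxA and HoxC were close to 0 in every line. The HoxB genes summed to 368 CPM in KP1, 853 in KP2, 542 in KP3 and 63.6 in KP5. HoxD summed to 700 CPM in KP1, 183 in KP2, 383 in KP3 and 0.250 in KP5. HoxA reached at most 1.98 CPM, in KP3, and HoxC at most 0.0992 CPM, in KP5. Each line has 1 library, so intervals cover counting error only, and no test between lines was possible.

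**Figure D1:**
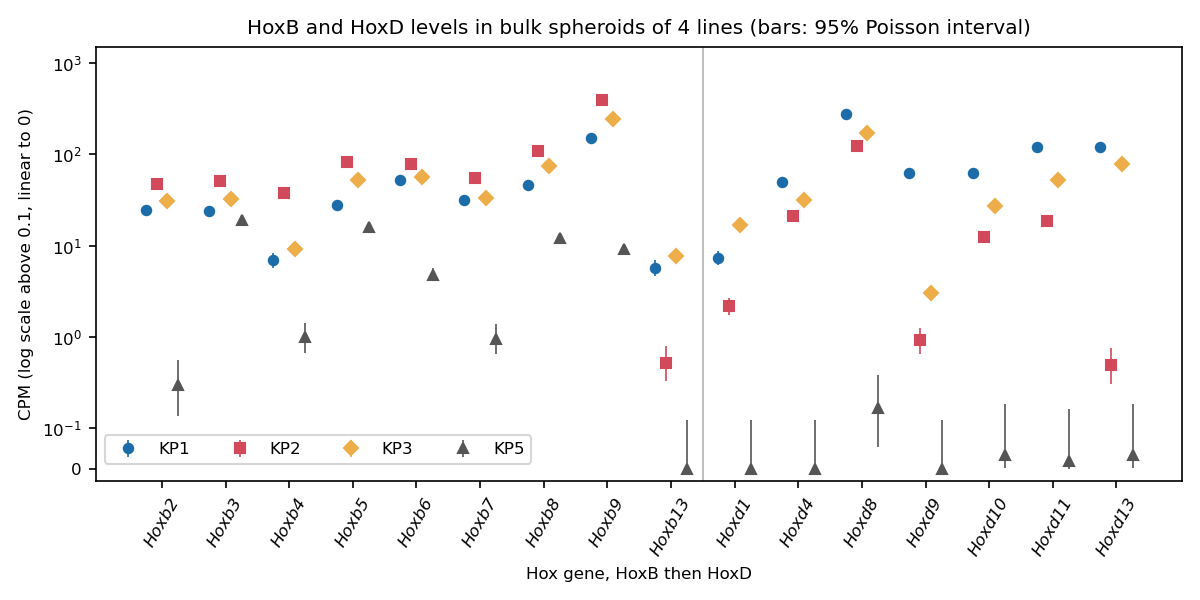
Level in CPM (log scale above 0.1) of the 16 Hox genes whose mean reached 10 CPM in some capture group or bulk line, in bulk spheroids of KP1, KP2, KP3 and KP5; bars are 95% Poisson intervals of 1 library. KP5 is the lowest line for all 16 genes and lies near 0 for the HoxD genes.

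Of the 39 genes, 16 had at least 5 CPM in some bulk line, and for 14 of them the highest line was at least 8-fold above the lowest. The same held for 12.6% of the 12011 genes with that level in these 4 libraries (1510 genes). The exceptions were Hoxb3 and Hoxb5. KP5 was the lowest line for all 16. KP2 was the highest for the HoxB genes apart from Hoxb13, and KP1 for the HoxD genes apart from Hoxd1, which like Hoxb13 was highest in KP3.

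Hoxd8, a gene of the middle of HoxD, had 275 CPM in KP1 (95% Poisson interval 267 to 283), 124 in KP2, 170 in KP3 and 0.165 in KP5 (0.0535 to 0.384). Scaled by exon length, it stood at 100 CPM per kb in KP1, the highest HoxD value of that line. Hoxd11, a posterior gene of limb and kidney patterning, had 120 CPM in KP1, 18.7 in KP2, 52.4 in KP3 and 0.0198 in KP5. All 3 lines with HoxD thus differed from KP5 by far more than they differed from each other in these genes.

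Hoxd13, the most posterior gene of its cluster and a regulator of digits and genitalia, split the lines in another way. It had 120 CPM in KP1 and 78.3 in KP3, but 0.495 CPM in KP2 and 0.0329 in KP5. Hoxd9 had 62.2 CPM in KP1, 0.919 in KP2, 3.01 in KP3 and none in KP5, so that KP1 was 67.7-fold above KP2 and 20.6-fold above KP3. KP2, which had Hoxd8, Hoxd10 (12.5 CPM) and Hoxd11, was therefore near 0 for Hoxd13 at the posterior end and for Hoxd9 within the cluster.

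Hoxd10 had 62.1 CPM in KP1, 27.1 in KP3 and 0.0329 in KP5. Hoxd4, an anterior gene with a role in the hindbrain and neck vertebrae, had 50.2 CPM in KP1, 21.0 in KP2, 31.2 in KP3 and none in KP5. Hoxd1, at the anterior end, had 7.36 CPM in KP1, 2.17 in KP2, 16.9 in KP3 and none in KP5. Hoxd3 and Hoxd12 stayed low, at no more than 4.09 and 0.290 CPM in any line. Hoxd3 and Hoxd4 share 388 exonic bases and both overlap the readthrough gene Gm28230, which had 16.7 CPM in KP1, 13.4 in KP2, 16.3 in KP3 and none in KP5, so their reads may be split among the 3 genes.

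Hoxb9, a gene of the thoracic axis, had 151 CPM in KP1, 394 in KP2, 244 in KP3 and 9.16 in KP5. Per kb of exon its level was 58.5, 153, 94.9 and 3.56 CPM, the highest of the HoxB genes in KP1, KP2 and KP3, while in KP5 Hoxb5 was highest at 5.75 CPM per kb. Hoxb8, known from microglia and the spinal cord, had 45.5, 108, 75.2 and 12.2 CPM in KP1, KP2, KP3 and KP5. KP5 was 43.0-fold below KP2 for Hoxb9 but only 8.86-fold for Hoxb8.

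Hoxb3 and Hoxb5 varied least between the lines, by 2.64-fold and 5.18-fold. Hoxb3 had 23.7 CPM in KP1, 50.6 in KP2, 32.7 in KP3 and 19.2 in KP5 (17.7 to 20.8). Hoxb5, which acts in lung branching and the enteric neural crest, had 28.0, 82.9, 51.9 and 16.0 CPM. Their neighbours fell further in KP5. Hoxb4 had 6.89, 37.4, 9.09 and 0.988 CPM in KP1, KP2, KP3 and KP5. Hoxb2, which helps to pattern the hindbrain, had 24.7, 47.3, 31.1 and 0.296 CPM. Both Hoxb3 and Hoxb2 have an antisense transcript, Hoxb3os (2250 and 953 shared exonic bases), and Hoxb5 has Hoxb5os; without strand, reads of such pairs cannot be told apart.

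Hoxb6 had 52.1, 77.4, 56.9 and 4.81 CPM, and Hoxb7 had 31.3, 54.7, 33.1 and 0.955 CPM, in KP1, KP2, KP3 and KP5. Hoxb13, at the posterior end and known from prostate and tail, had 5.68 CPM in KP1, 0.518 in KP2, 7.64 in KP3 and none in KP5. The line order of Hoxb13 was thus that of Hoxd13 at its low end, with KP2 and KP5 at or near 0. Hoxb1, the most anterior HoxB gene, had counts only in KP5, at 0.0659 CPM from 2 counts.

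In HoxA the highest bulk value was that of Hoxa13, a limb and genital gene, at 1.32 CPM in KP3 (0.981 to 1.74), with 0.0579 CPM in KP1 and none in KP2 and KP5. Hoxa5, a gene of lung development, had 0.370 CPM in KP3 and none in the other lines. Hoxa11, Hoxc4, Hoxc5 and Hoxc12 had no count in any of the 199 libraries.

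The 10-cell libraries put the pre-cancer line beside KP1. In KP1 spheroids 24 of the 39 genes had counts, 37844 in all, and every library held some. RPC had counts of 10 genes, 37.75 in all, in 9 of its 24 libraries, at similar depth. HoxD summed to 263 ± 106 CPM (SD, n = 28) in KP1, with a lowest, median and highest library of 36.5, 259 and 469 CPM, and to 0, 0 and 0.540 CPM in RPC, so that the groups did not overlap. HoxB summed to 40.5 ± 36.7 CPM in KP1 (0.942, 29.3 and 162) and to at most 0.221 CPM in RPC, again without overlap.

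**Figure D2:**
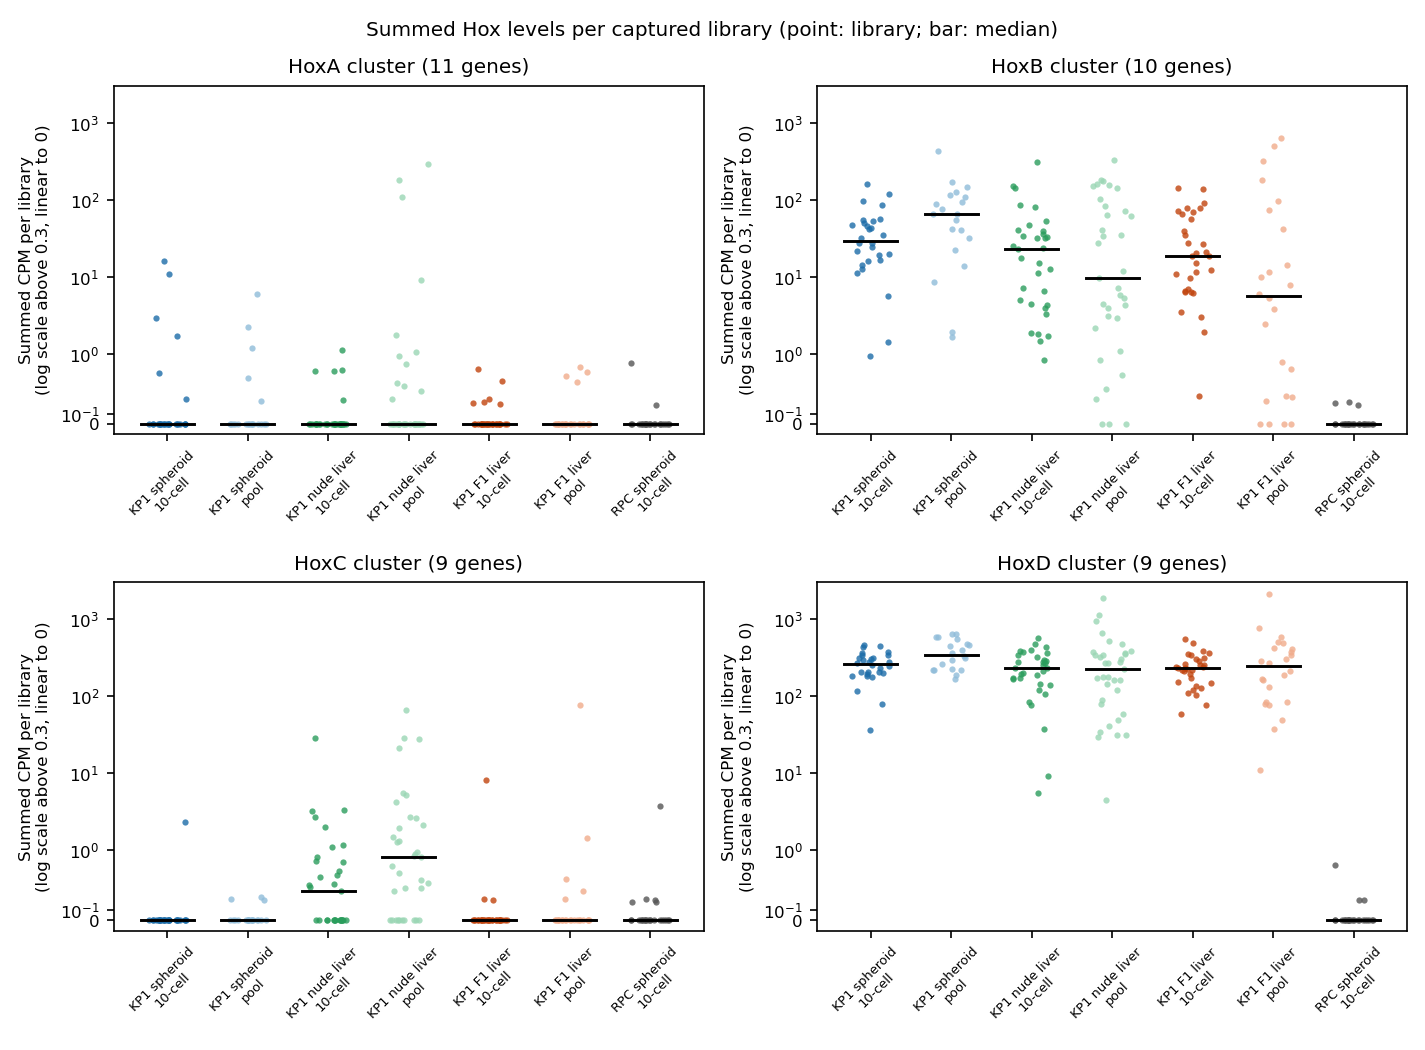
Summed CPM per library (log scale above 0.3) of each Hox cluster in the 7 capture groups; points are libraries and bars medians. HoxB and HoxD are at or near 0 in all 24 RPC libraries; HoxD has counts in every KP1 library, and HoxB in all but 3 nude and 4 F1 liver pools, and HoxC has counts in more nude liver libraries than in other groups.

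Among single genes, Hoxd8 and Hoxd11 had every KP1 library above every RPC library, as did 0.196% of the 19396 genes with counts in these groups (38 genes). Hoxd8 had 18.4, 146 and 348 CPM (lowest, median, highest) in KP1 and no count in RPC, which allows up to 0.0238 CPM at 3 counts over the group. By counted reads it was therefore at least 6101-fold lower in RPC. This bound and those below cover counting error only, since PCR reads are not independent molecules. Hoxd11 had 2.43, 56.4 and 215 CPM in KP1 and counts in 2 RPC libraries, at up to 0.540 CPM. Hoxd10 had 0, 8.56 and 97.0 CPM in KP1 and no count in RPC, at least 913-fold lower. For Hoxb7 the values were 0, 9.87 and 133 CPM in KP1 and no count in RPC, at least 821-fold lower.

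**Figure D3:**
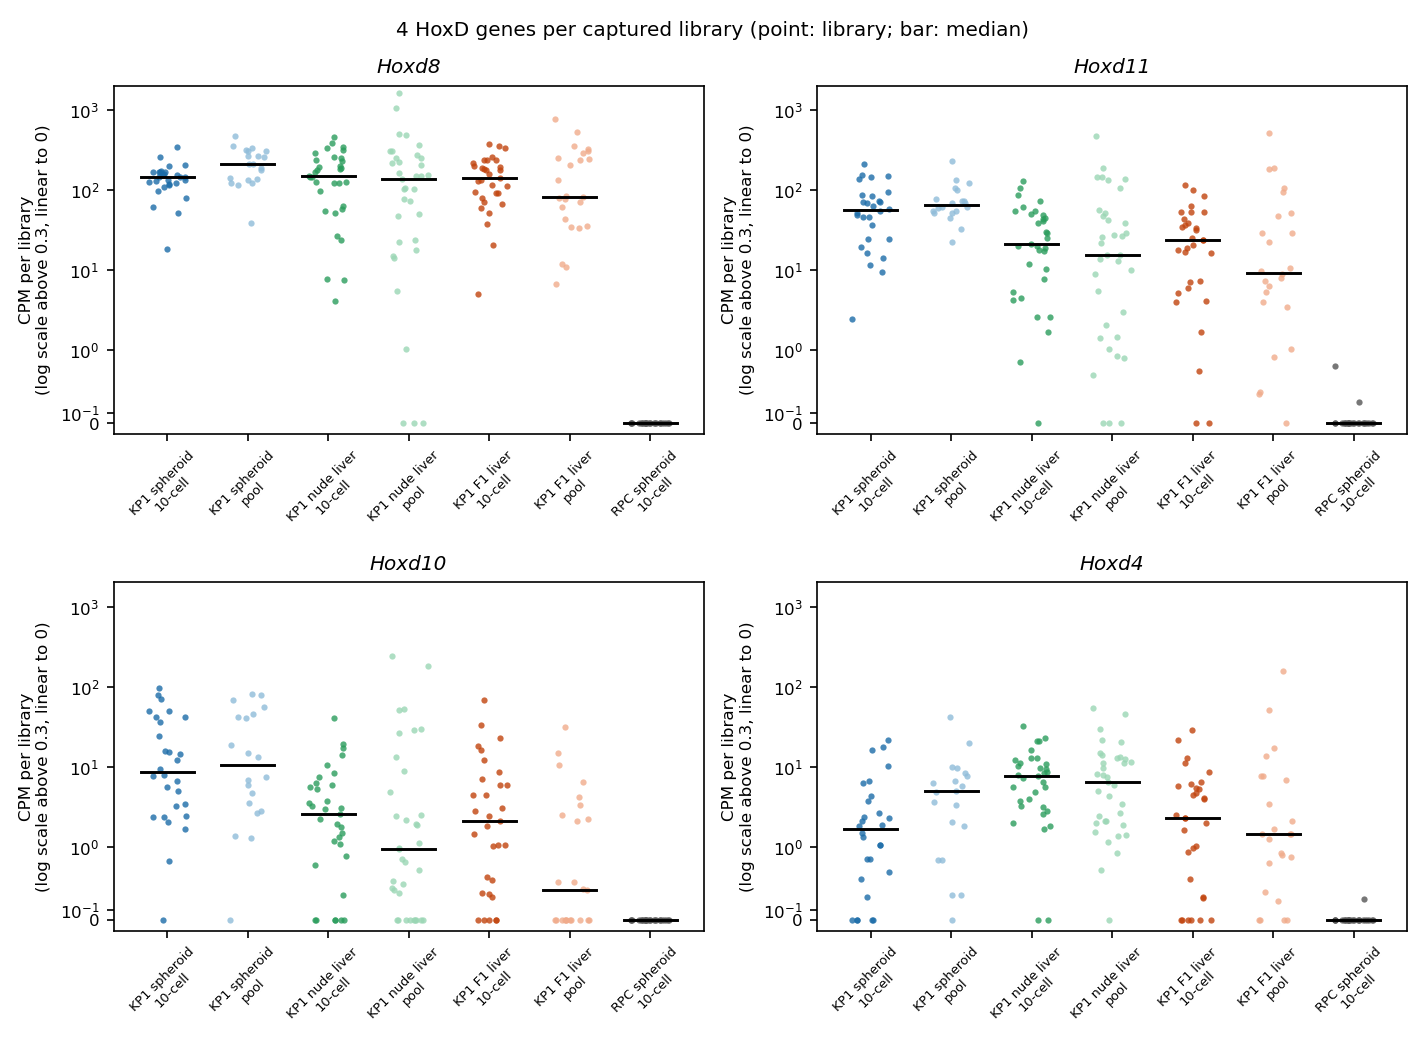
CPM per library (log scale above 0.3) of Hoxd8, Hoxd11, Hoxd10 and Hoxd4 in the 7 capture groups; points are libraries and bars medians. Hoxd8 has similar medians in KP1 spheroids and in both kinds of liver colony, Hoxd10 and Hoxd11 have lower medians in liver, and all 4 genes are at or near 0 in RPC.

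These 4 genes were the members that passed the filter on low counts, all through their level in KP1, so a lower level in RPC was set by the filter. The calls of edgeR's quasi-likelihood test with Benjamini-Hochberg adjustment, 4 of 4 lower beside 11.6% of the 8600 genes tested, are therefore no evidence about the members, and the levels and bounds above stand as the description. In the 9 KP1 libraries with an ERCC share like that of most RPC libraries, Hoxd8 had 152 ± 86.2 CPM and Hoxd11 75.4 ± 64.7 CPM, and in the other 19 libraries 142 ± 50.5 and 63.6 ± 46.9 CPM.

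Low genes were compared by the number of libraries with a count, after each library was thinned to 718149 gene counts (Fisher's exact test, two-sided, adjusted over all genes tested). All 17 members tested entered through KP1, with at most 1 RPC library each, so the direction was set by that filter too. Of the 17, 11 were called in fewer RPC libraries (all 14477 genes tested 2.29%), and nothing is read from that count. They were Hoxb5, Hoxb6, Hoxb7, Hoxb13, Hoxd3, Hoxd4, Hoxd8, Hoxd9, Hoxd10, Hoxd11 and Hoxd13. Hoxb5 was found in 19 of 28 KP1 and 0 of 24 RPC libraries, Hoxd9 in 21 and 0 and Hoxd13 in 15 and 0. Hoxb3 and Hoxb9, each in 7 KP1 and 0 RPC libraries, were not called. Per group and by counting error only, 0 counts in RPC leave Hoxd9 at least 488-fold, Hoxd13 at least 415-fold and Hoxb13 at least 222-fold below KP1.

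**Figure D4:**
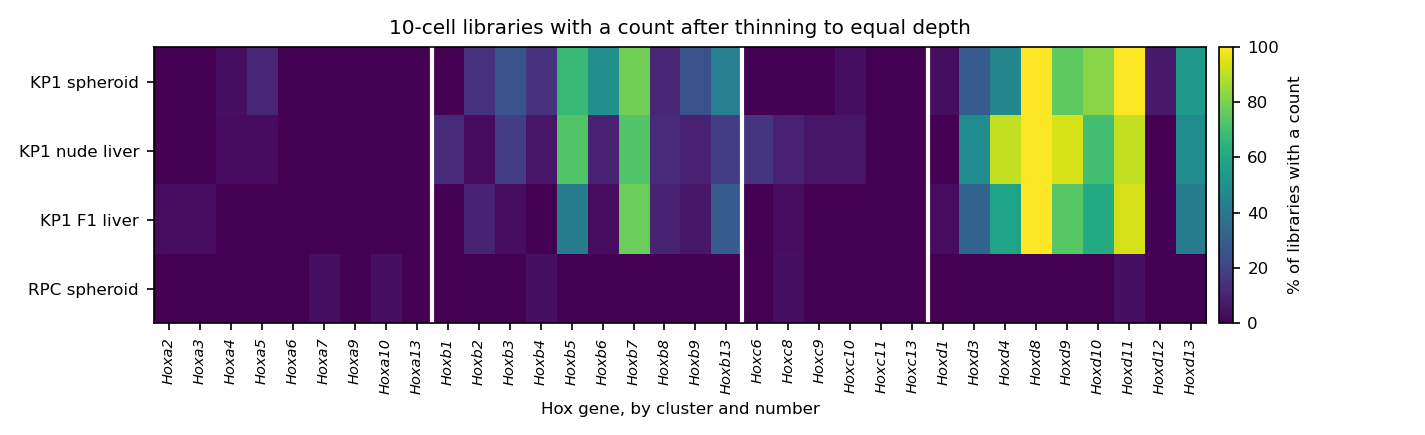
Percent of 10-cell libraries with a count of each of the 34 Hox genes with a count in any library, after thinning to equal depth, for KP1 spheroids, KP1 nude liver, KP1 F1 liver and RPC spheroids. Hoxd8 is found in all KP1 libraries of the 3 groups and in no RPC library, and HoxA and HoxC are dark in all groups apart from a few libraries.

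Of the 37.75 counts that RPC did have, HoxC held 25.02, HoxA 5.0, HoxD 4.68 and HoxB 3.05. Hoxc8 had 21 counts in a single library (3.80 CPM), Hoxa10 had 4 counts in a single library, Hoxc6 had 3 counts in 3 libraries, and no other member had more than 4. KP5, in bulk, and RPC, in captures, were both near 0 for HoxD, while KP5 kept part of HoxB. RPC has no bulk library, and the difference between these lines was not tested. In KP1 spheroids bulk levels were 56.2-fold the 10-cell mean for Hoxb3, 140-fold for Hoxb8 and 3.35-fold for Hoxb5. Bulk and capture levels can therefore not be set side by side.

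Regulators of the clusters were taken from lists of known genes, and their calls are read against the 21.9% of all 8600 genes that were called in either direction between RPC and KP1 (882 higher and 999 lower). Of 9 Hox cofactors, which bind DNA together with Hox proteins, 5 were tested between RPC and KP1 and 1 was called, Pbx3, which was higher in RPC (35.7 against 8.24 CPM; log2 fold change 1.70, SE 0.56, adjusted p 0.0219 by edgeR's quasi-likelihood test). Of 26 Polycomb and H3K27 demethylase genes 19 were tested, with 6 higher and 1 lower and a median log2 fold change of 0.13, against 0.01 over all genes tested. Rbbp7, a histone-binding partner of the PRC2 complex, had the smallest adjusted p (9.20e-06, log2 fold change 1.37), and Jarid2, which guides PRC2 to its targets, rose by 1.97 (adjusted p 0.00501). Rnf2, the ubiquitin ligase of PRC1, fell by 1.46 on the log2 scale (adjusted p 0.0429).

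Of 22 genes of the Kmt2a complex and activators 16 were tested, with 3 lower, Dpy30, Ep300 and Crebbp, and none higher (median -0.42). Crebbp, deleted in RPC by its label, had a log2 fold change of -1.27 (adjusted p 0.0351). CTCF and cohesin genes, which shape the loops of the clusters, had 9 tested and 2 lower, Rad21 and Smc3. Of 21 other homeobox genes 8 were tested, with 2 higher and 3 lower. Pou3f2, a neural POU factor, had counts in 24 of 24 RPC and in 3 of 28 KP1 libraries (16.2 against 0.654 CPM, log2 fold change 5.05). It passed the filter on low counts through RPC, so its direction was set by the filter and its call is no evidence. Dlx6 was also called higher (4.21, adjusted p 8.52e-06 by edgeR). No pattern of homeobox genes outside the clusters is read from these calls.

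Genes on either side of the clusters were counted too. Of the 10 genes that flank HoxD 8 were tested and 2 were lower in RPC, Mtx2, a mitochondrial import gene next to Hoxd1 (40.9 against 138 CPM; log2 fold change -2.16, SE 0.40, adjusted p 2.39e-05 by edgeR), and Hnrnpa3 (-0.71, adjusted p 0.000448). Both had counts in all 24 RPC libraries. Of the 10 flanking HoxB 5 were tested, with Ube2z, Cbx1 and Snf8 higher and Atp5g1 lower. Beside HoxC, which was near 0 in both lines, 6 were tested and 2 were lower, Atp5g2 (-1.65, adjusted p 3.31e-05) and Hnrnpa1 (-0.51, adjusted p 0.0300), and beside HoxA 6 were tested and 1 was higher, Cbx3 (0.78, adjusted p 0.0449). These counts stand beside the 21.9% called over all genes. In the bulk lines Mtx2 had 78.9 CPM in KP1 and 56.9 in KP5, and Evx2, the homeobox gene just beyond Hoxd13, had no more than 0.348 CPM in any line.

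In 10-cell libraries of liver colonies both clusters had counts in every library. HoxD summed to 238 ± 136 CPM in nude liver (n = 33; 5.57, 231 and 571) and 239 ± 114 in F1 liver (n = 31; 58.6, 235 and 549). HoxB summed to 38.8 ± 60.6 CPM (0.831, 22.9 and 307) and 35.2 ± 38.6 CPM (0.274, 18.7 and 142). These ranges overlap those of KP1 spheroids. In pools HoxB had a median of 64.4 CPM in spheroids, 9.65 in nude and 5.63 in F1 liver, with 0, 3 and 4 pools at 0, and HoxD a median of 348, 223 and 243 CPM; the sums were not tested. Liver libraries also held other cells: the 7 hepatocyte markers summed to a median of 586 CPM in nude and 79.3 CPM in F1 liver against 0 in KP1 spheroids, and the 5 erythrocyte markers to 551, 1622 and 0 CPM. Chga was lower in nude liver (log2 fold change -0.78, adjusted p 0.00997 by edgeR) and in F1 liver (-0.89, adjusted p 0.0157), and Uchl1 was lower in nude (-0.85, adjusted p 0.00151) and higher in F1 liver (0.70, adjusted p 0.00536). Of the 8 neuroendocrine markers 7 were tested in nude liver, with 6 lower and 0 higher (34.1% of all genes called). Their median log2 fold change was -1.64, against -0.04 over all genes. In F1 liver 6 were tested, with 4 lower and 1 higher (12.6% of all genes called). The median there was -1.28, against 0.22 over all genes. The part of these shifts in the results was not tested.

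Hoxd8 had 4.18, 148 and 467 CPM in nude liver and 5.06, 142 and 380 CPM in F1 liver. Its log2 fold change against spheroids was 0.07 (SE 0.29, adjusted p 0.88) in nude and 0.48 (SE 0.27, adjusted p 0.25) in F1 liver by edgeR's quasi-likelihood test. The medians of all 3 groups lay within a few CPM of each other.

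Hoxd9, next to Hoxd8, had 0, 10.5 and 48.7 CPM in nude and 0, 8.88 and 182 in F1 liver against 0, 6.28 and 70.0 in spheroids, with log2 fold changes of 0.17 (SE 0.55, adjusted p 0.84) and 1.07 (SE 0.69, adjusted p 0.32) by edgeR's quasi-likelihood test.

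In nude liver Hoxd10 and Hoxd11 were lower. Hoxd10 had 0, 2.54 and 41.1 CPM there, against 0, 8.56 and 97.0 in spheroids, and its log2 fold change was -2.27 (SE 0.57, adjusted p 0.00108 by edgeR's quasi-likelihood test). Hoxd11 had 0, 21.4 and 131 CPM against 2.43, 56.4 and 215 (log2 fold change -1.26, SE 0.41, adjusted p 0.0121). The groups overlap for both genes, and both overlap a readthrough annotation, Gm28309, that the table does not list. They were the 2 members called of 7 tested in nude liver, where 34.1% of all 7834 genes were called in either direction, so the share of Hox genes called is near the background. All 33 nude and all 31 F1 liver 10-cell libraries had at least 0.1% ERCC. Against the 9 spheroid libraries with such a share, Hoxd10 (-2.19, adjusted p 0.0429) and Hoxd11 (-1.63, adjusted p 0.0436) were both called by edgeR's quasi-likelihood test, and against the other 19 Hoxd11 was not (-1.06, adjusted p 0.0781).

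**Figure D5:**
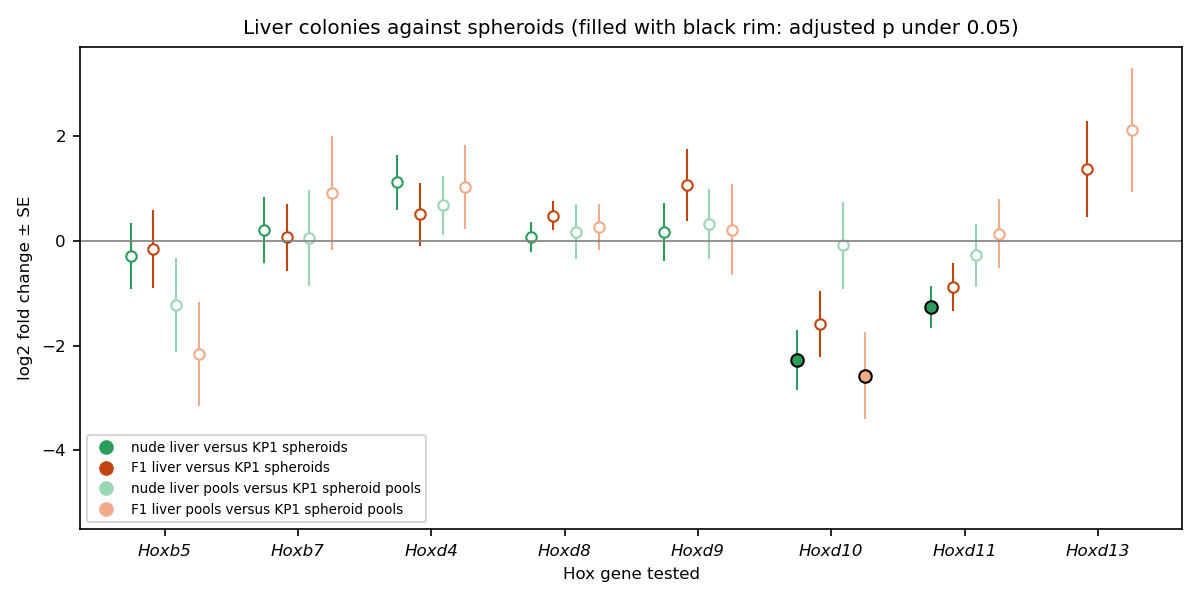
Log2 fold change with its SE (edgeR) of the Hox genes that passed the filter, in liver colonies against KP1 spheroids, for 10-cell libraries and pools; filled symbols with a black rim mark an adjusted p under 0.05. Hoxd10 is called in nude 10-cell libraries and F1 pools and Hoxd11 in nude 10-cell libraries, while Hoxd8 lies near 0 in all 4 comparisons.

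In F1 liver no member of 8 tested was called, where 12.6% of 7309 genes were; 1 member had an unadjusted p under 0.05, DESeq2 called 1 and limma-voom 2. Hoxd10 had 0, 2.12 and 67.7 CPM there (log2 fold change -1.59, SE 0.63, adjusted p 0.0805 by edgeR's quasi-likelihood test). For Hoxd11 the log2 fold change was -0.88 (SE 0.46, adjusted p 0.20 by the same test). In the 24 F1 libraries with over 250 CPM of the pseudogene Rpl19-ps11, a feature that splits these libraries, Hoxd10 had 4.88 ± 13.6 CPM, and in the other 7 it had 15.5 ± 11.0. With the 24 alone, it was called (-1.96, adjusted p 0.0486).

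The pools gave a mixed account of Hoxd10. In nude liver pools it had 18.7 ± 50.4 CPM (n = 35) against 24.8 ± 27.8 in spheroid pools (n = 20), with a log2 fold change of -0.09 (SE 0.83, adjusted p 0.95 by edgeR). Its median there was 0.932 against 10.4 CPM, and its highest 2 nude pools had 242 and 179 CPM. In F1 liver pools it had 3.27 ± 7.00 CPM (n = 24) and was called lower (-2.57, SE 0.83, adjusted p 0.0335). It was the only member called of 8 tested there, where 11.6% of 7249 genes were called, and 0 of 7 were called in nude pools, where 25.6% of 8010 were (0 at an unadjusted p under 0.05, and 0 with the RLE scaling). Hoxd11 had a log2 fold change of -0.27 (SE 0.60, adjusted p 0.79 by edgeR) in nude pools. In F1 pools it had 0.14 (SE 0.66, adjusted p 0.92), so its lower level in nude 10-cell libraries was not seen in pools.

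Anterior to Hoxd8, Hoxd4 was found in more nude liver libraries. After thinning it was present in 30 of 33 nude and 13 of 28 spheroid libraries (Fisher's exact test, adjusted p 0.00379), and its levels were 0, 7.64 and 32.7 CPM against 0, 1.66 and 21.8. Without thinning the nude libraries, which are shallower, and the spheroid libraries had a count in 31 of 33 and 23 of 28 (adjusted p 0.49), and at 5 CPM in 21 and 6 (adjusted p 0.0161), so the call depends on the equal depth or on a level threshold. By mean level its log2 fold change was 1.12 (SE 0.52, adjusted p 0.0877 by edgeR's quasi-likelihood test), while DESeq2 (adjusted p 0.0266) and limma-voom (0.000690) called it higher. In F1 liver it was present in 18 of 31 libraries, at 0, 2.32 and 29.1 CPM, and the difference from nude liver had an adjusted p of 0.0558.

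Hoxb6 went the other way. It was present in 14 of 28 spheroid libraries, 3 of 33 nude liver libraries (adjusted p 0.00754, Fisher's exact test) and 1 of 31 F1 liver libraries. In the F1 comparison Hoxb6 reached the minimum of 3 libraries only through the spheroids. The direction there was set by that filter, and nothing is read from the F1 call. Before thinning it had counts in 7 of the 9 and 15 of the 19 spheroid libraries on either side of the ERCC split, and in 3 of 24 and 3 of 7 F1 libraries on either side of the Rpl19-ps11 split. Its highest levels were 6.83, 3.65 and 11.7 CPM, so the difference concerns a gene near the limit of detection. With at least 5 CPM as the mark of presence instead, Hoxb6 was not called in either liver. Hoxd4 and Hoxb6 were the 2 members called of 21 tested by presence in nude liver, and Hoxb6 was the 1 of 17 in F1 liver, where 13.8% of 15182 and 4.72% of 14208 genes were called.

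Among HoxB genes, Hoxb7 and Hoxb5 were tested in both livers. Hoxb7 had 0, 4.45 and 282 CPM in nude liver and 0, 6.38 and 79.3 in F1 liver, with log2 fold changes of 0.21 (SE 0.63) and 0.07 (SE 0.65) against spheroids. Hoxb5 had 0, 2.16 and 53.3 CPM and 0, 0.739 and 62.4 CPM, with log2 fold changes of -0.29 (SE 0.63) and -0.15 (SE 0.74). In nude and F1 pools Hoxb5 had log2 fold changes of -1.23 (SE 0.89) and -2.15 (SE 0.99) against spheroid pools. Hoxb7 had 0.06 (SE 0.92) and 0.91 (SE 1.09) there. None of these passed the test, and with standard errors of this size the intervals are wide.

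Calls in the lists of regulators and neighbours in liver are read against the shares over all genes, 34.1% in nude and 12.6% in F1 liver. Of 17 Polycomb and H3K27 demethylase genes tested in nude liver 4 were higher, Uty, Jarid2, Kdm6a and Rbbp4 (median log2 fold change 0.28, against -0.04 over all genes), and of 15 tested in F1 liver 1 was lower, Rnf2 (-3.47, SE 0.70, adjusted p 0.000254 by edgeR). Of 15 genes of the Kmt2a complex and activators tested in nude liver, Kmt2a itself was higher (2.34, adjusted p 9.68e-06) and Dpy30, Aff4 and Ep300 were lower. Of the genes that flank HoxD 4 of 7 tested were lower in nude liver, among them Mtx2 (-3.02, SE 0.51, adjusted p 1.66e-06), which had 21.9 CPM there against 138 in spheroids, while the log2 fold change of Hoxd8 in the same libraries was 0.07. In F1 liver 3 of 8 were lower, Atp5g3, Lnpk and Hnrnpa3. Beside the other clusters, nude liver had 1 of 6 lower at HoxA, 1 higher and 1 lower of 4 at HoxB, and 1 higher and 2 lower of 4 at HoxC. F1 liver had 1 of 5 lower at HoxA, none of 4 at HoxB and 1 of 4 higher at HoxC.

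Between the livers no member was called. By mean level 0 of 7 were (0 at an unadjusted p under 0.05, DESeq2 0 and limma-voom 1), where 19.2% of 7064 genes were called by edgeR's quasi-likelihood test, and by presence 0 of 18, where 5.84% of 15148 genes were (3 at an unadjusted p under 0.05). In pools 0 of 4 were called, where 12.0% of 6010 genes were (0 at an unadjusted p under 0.05, RLE scaling 0). Hoxd8 was 0.44 higher in F1 on the log2 scale (SE 0.33, adjusted p 0.36) and Hoxd10 0.69 higher (SE 0.57, adjusted p 0.43).

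Neighbouring genes differed in how many KP1 10-cell libraries held them after thinning. Hoxd8 was present in every library of the 3 groups and Hoxd9 in 21 spheroid, 31 nude and 23 F1 liver libraries. Hoxd11 was present in 28, 30 and 29 and Hoxd10 in 23, 23 and 19. Hoxb7 and its neighbour Hoxb6 were both present in 13 spheroid libraries, and Hoxb7 alone in 9, Hoxb6 alone in 1. Hoxd13 was present in 15 of 28 spheroid, 16 of 33 nude and 13 of 31 F1 liver libraries, and Hoxd12 beside it in 2, 0 and 0.

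Single libraries set the mean of several genes. In F1 liver pools 1 library had 1574 CPM of Hoxd13, 81.2% of the sum over 24 libraries, and without it the mean of 80.7 CPM became 15.8. Another held 630 CPM of Hoxb9, 77.4% of its sum (33.9 CPM became 7.99). In spheroid 10-cell libraries 1 library gave 92.1% of Hoxd1, and in nude liver 10-cell libraries 1 gave 62.8% of Hoxd13. For Hoxd8 the top library gave no more than 8.56% of the sum in any 10-cell group.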

How the data were processed

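Expression was measured by RNA sequencing in 199 libraries. The authors deposited 1 table of expected counts (estimated counts per gene, not scaled between libraries, from the values), of which 10.7% are not whole; the submitters' processing notes name Bowtie2, RSEM, GRCm38 and GRCh38.p12, with no versions or roles. Per the labels' protocols, captured samples were reverse transcribed and amplified by poly(A) PCR, and bulk samples by NEBNext after oligo-dT selection, so levels are not comparable between these kinds. The 92 ERCC rows were left out of library totals.

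Counts were rounded and tested with edgeR 4.0.16 (quasi-likelihood, TMM, filterByExpr) over all genes, with Benjamini-Hochberg adjustment at 0.05. Presence was compared with Fisher's exact test on libraries thinned to 718149 counts, for genes found in at least 3 libraries. Groups follow the labels. Values of some genes are not reported here. Floors are 3 counts over a group. DESeq2 1.42.0, limma 3.58.1 (voom) and other settings served as alternatives. Each test was tested on simulated data. The members and lists were chosen with earlier results of these data known. Named are members with a mean of at least 10 CPM in any group or line, members called, members with no count, and called genes of the lists, up to 4 per list; others were named after their values were seen. Positions are those of the deposited table, exon lengths and overlaps come from GENCODE M21, and promoters from RefSeq. PCR reads without molecular identifiers are not independent molecules, so intervals and floors cover counting error only. Analyses used R 4.3.3, Python 3.11.15, pandas 2.3.3 and scipy 1.17.1.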

Additional observations from a re-analysis of the deposited data

How the results depend on the processing

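In RPC the members entered the test through KP1 alone, so their calls under other settings were bound to follow and do not measure stability. With the KP1 libraries of at least 0.1% ERCC they were 2 of 2 (all genes 18.0%). In 52 refits without 1 library they were 4 of 4 (range 4 to 4), with 1750 to 1953 genes called in all. Beside each further count of members called stands the share called over all genes in the same fit, and several counts lie near it. Without the filter on low counts, edgeR called 22 of 22 members in RPC (all genes 35.0%; Hoxc8 higher, 21 lower), 14 of 25 in nude (46.6%) and 7 of 22 in F1 liver (29.5%) against spheroids, and 7 of 21 between livers (34.7%). In pools it called 13 of 26 in nude (42.7%), 8 of 21 in F1 (31.5%) and 11 of 23 between livers (33.7%). Against the spheroids with under 0.1% ERCC 1 of 8 was called in nude liver (28.4%). In F1 liver 1 of 8 was called with DESeq2 (19.4%), 2 of 8 with limma-voom (23.8%) and 1 of 8 in libraries with over 250 CPM of Rpl19-ps11 (14.9%), and between livers 1 of 7 with limma-voom (24.8%). By presence at 5 CPM, 7 of 10 were called in RPC (11.3% in either direction), 1 of 11 in nude (16.4%) and 0 of 13 in F1 liver (6.17%; 2 members at an unadjusted p under 0.05 by Fisher's exact test); at 1 count without thinning, 1 of 24 was called between livers (3.15%). The RLE scaling turned the RPC calls from 882 higher and 999 lower to 1131 and 826 and the median of all genes from 0.01 to 0.16 (log2); for nude pools the split went from 1323 and 731 to 1168 and 995. An alternative chosen after seeing the data left out 4 nude libraries under 1500000 gene counts. It called 2 of 7 members in nude liver against spheroids (32.0%) and 0 of 7 between livers (14.2%), as before.

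Library numbers do not pair samples: the median correlation of same-numbered libraries was between -0.00379 and 0.00265. With a replicate block, 1 of 7 members was called in F1 liver against spheroids (all genes 13.0%), 2 of 7 in nude pools (40.2%) and 3 of 7 in F1 pools (27.1%). The other comparisons had 3 of 3 in RPC (24.1%), where Hoxb7 did not pass the filter, 3 of 7 in nude liver (35.8%), and 0 of 7 (13.2%) and 0 of 4 (3.51%) between livers in 10-cell libraries and pools.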

Other observations

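HoxC had counts in more nude liver libraries than in other capture groups, mostly at low level, with single libraries that were high. Hoxc6 had counts in 12 of 33 nude 10-cell libraries and in 14 of 35 nude pools, against 0 of 28 spheroid and 0 of 31 F1 liver 10-cell libraries, 1 of 20 spheroid pools and 2 of 24 F1 pools. Its highest level was 3.14 CPM. Hoxc9 had counts in 9 and 12 nude libraries of these kinds, 1 and 2 in spheroids, and 2 and 2 in F1 liver. Without thinning, Hoxc6 was called against spheroids and against F1 liver by Fisher's exact test. Hoxc6 entered both tests through nude liver alone, so the direction was set by the filter, and nothing is read from these calls. After thinning it was present in 5 of 33 nude 10-cell libraries and was not called (adjusted p 0.20 and 0.28). Nude 10-cell libraries also had higher endothelial and hepatocyte markers. The 5 endothelial genes had a median sum of 14.7 CPM against 0.234 in spheroids and 1.59 in F1 liver. The 7 hepatocyte genes had 586 CPM against 0 and 79.3. Erythrocyte, macrophage, stellate and cholangiocyte markers had higher medians in F1 than in nude liver. The part of other cells in the HoxC counts was not tested. The high libraries came from other HoxC genes. Hoxc10 had counts in 2 nude 10-cell libraries, at 22.9 and 2.67 CPM, in 4 nude pools, at up to 64.6 and 27.0 CPM, and in 1 F1 pool at 76.4 CPM. Hoxc13 had counts in 2 nude pools, at 28.6 and 20.5 CPM, and Hoxc8 in 1 F1 liver 10-cell library at 8.20 CPM. The median HoxC sum was 0.294 CPM in nude 10-cell libraries and 0.808 CPM in nude pools, and 0 in the other capture groups.

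HoxA, with a median of 0 CPM in each capture group, was high in single nude liver pools. Hoxa5 reached 287 CPM, 96.4% of its sum over 35 pools. Hoxa9 reached 180 CPM and Hoxa10 104 CPM, 97.9% and 99.1% of their sums.

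KP1 bulk spheroids and KP1 10-cell captures ranked the same genes differently. Hoxb9 had 151 CPM in bulk but a mean of 3.82 CPM in 10-cell spheroid captures, a ratio of 39.4, and Hoxb8 had 45.5 and 0.326 CPM, the highest of these ratios among the 16 genes. For Hoxd8, Hoxd11 and Hoxb7 the ratios to 10-cell captures were 1.89, 1.78 and 1.60. Over 10886 genes with at least 5 CPM in bulk the median ratio was 3.35 and the 95th percentile 59.5, so Hoxb8 lies at the 97.4th percentile and Hoxb7 at the 30.3rd. Against pool captures the ratios ranked differently, with Hoxb4 highest at 574, Hoxb9 at 141, Hoxb8 at 125 and Hoxb7 at 0.742. Genes with little signal in captures were therefore not necessarily low in the cells' bulk RNA, and the bulk and capture libraries differ in method.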
